A study of Rattus norvegicus with 7 samples.

Results

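The Eph receptors and the ephrins, their membrane-bound ligands, were examined through 10 genes: the receptors Epha2, Epha3, Epha4, Epha5, Epha7, Ephb1 and Ephb2 and the ligands Efna1, Efnb2 and Efnb3. They were picked by symbol from the 32852 genes of the deposited table, and all 10 were found, each in a single row. The set was chosen because Epha2 was higher after the siRNA in these same libraries. The values of the siRNA contrast are therefore given for these 10 genes as a description and support nothing. The cultures were wild-type rat oligodendrocyte progenitors, isolated from brain at postnatal day 7, plated at about 40000 cells in each well of a plate with 12 wells, and switched to differentiating medium at the time of transfection. One group (4 libraries) received a control siRNA and the other (3 libraries) one directed at RNLTR12-int, the internal part of a rat endogenous retrovirus. Both groups shared the Lipofectamine RNAiMAX reagent, the medium and 4 to 5 days of culture. The titles call the libraries biological replicates and name no animal, culture or day, so p-values reflect only how far these samples spread, and that spread may be technical. The transcript of RNLTR12-int was not analysed here, so the knockdown was not checked.

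Eph receptors are the largest family of receptor tyrosine kinases. Receptors of the A class mainly bind A-type ephrins, which are held in the membrane by a lipid anchor, and receptors of the B class mainly bind B-type ephrins, which cross the membrane and signal into their own cell as well. Contact between a receptor on one cell and an ephrin on its neighbour steers axons, positions cells and sorts them into territories, and in the oligodendrocyte lineage the family is known for guiding process contact with axons and migration.

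The libraries held 22523873 to 61803693 reads, recovered from the deposited values as described under the processing, and the 10 genes were covered by 34 to 12861 reads each. Summed normalised counts of 10 oligodendrocyte markers were 195176 to 954358 in controls, with the top value in control replicate 2, and 68586 to 89309 after the siRNA. For 9 of these 10 markers the siRNA libraries were all below the controls, where 3.59% of all genes with a mean of at least 10 were so. Mbp, which encodes myelin basic protein, had 401821 in control replicate 2 and 78977 to 109426 in the other controls. Progenitor markers were abundant throughout (244804 to 422760 over 9 genes). Astrocyte markers divided the libraries without following the siRNA. Their sum over 10 genes was 495590 to 620313 in siRNLTR12-int replicate 1 and control replicates 1 and 2, called here the astrocyte-high libraries. It was 118257 to 143602 in the other 4, the astrocyte-low libraries. Of the 10 genes, 8 had every astrocyte-high library above every astrocyte-low one, while Fgfr3 and Gjb6 (mean normalised count 10.3) overlapped. The sums of other markers followed the same division: microglia (2536 to 7678 in astrocyte-high against 759.5 to 1142 in astrocyte-low libraries over 9 genes), vascular and fibroblast (3197 to 4362 against 1584 to 1712 over 8 genes) and, in the opposite direction, neuron markers (26419 to 28331 against 30100.0 to 34384 over 10 genes). By mean log2 level, the measure that set the division, the neuron and the vascular and fibroblast lists did not follow it. Control replicate 2 was the highest library for neuron markers (8.68, against 8.41 to 8.58 in the astrocyte-low libraries). For vascular and fibroblast markers it had 5.16, below the astrocyte-low siRNLTR12-int replicate 2 at 5.29. The endothelial gene Cldn5 was at 0 in every library. The division was found in the data and is no group of the study.

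Epha2, the receptor kinase for A-type ephrins best known from epithelial and growing cells, was the member with the highest siRNLTR12-int over control ratio. Its normalised counts (reads divided by the authors' size factor for each library, not corrected for gene length) were 75.6, 38.5, 47.4 and 60.3 in the controls and 174, 177 and 187 in the siRNLTR12-int libraries, listed here and below by replicate number, 1 to 4 and 1 to 3. All 3 siRNLTR12-int libraries lay above all 4 controls, and the 3 sat close together. The means were 55.4 ± 16.2 (SD, n = 4) and 179.6 ± 6.56 (SD, n = 3), a ratio of 3.24. On the log2(normalised count + 1) scale the difference was 1.72 with a standard error of 0.26. In the authors' deposited table Epha2 was ranked 4 by p among 27902 genes, with a log2 fold change of 1.71 and an adjusted p of 4.9e-06 (DESeq2), and these are the values that chose the gene.

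Counting error was smaller than this gap. The highest control, replicate 1, had 79 reads of Epha2 and a 95% exact Poisson interval of 59.8 to 94.2 normalised counts, and the siRNLTR12-int library with the lowest bound, replicate 2, had 140 reads and an interval of 149 to 209. These intervals cover counting error only, and they add no support, since Epha2 was chosen for this gap. The Epha2 difference was 1.75 in the 4 astrocyte-low libraries and 1.67 in the 3 astrocyte-high libraries, where there was a single siRNLTR12-int library. The siRNA groups did not overlap in Epha2, so the same sign on both sides was fixed in advance and adds no support. Epha2 itself did not follow the division, with 38.5 to 174 in the astrocyte-high and 47.4 to 187 in the astrocyte-low libraries. RNA of mixed cells was measured, so more cells of a type that carries Epha2 and more Epha2 RNA per cell cannot be told apart, which holds for every gene below.

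**Figure D1:**
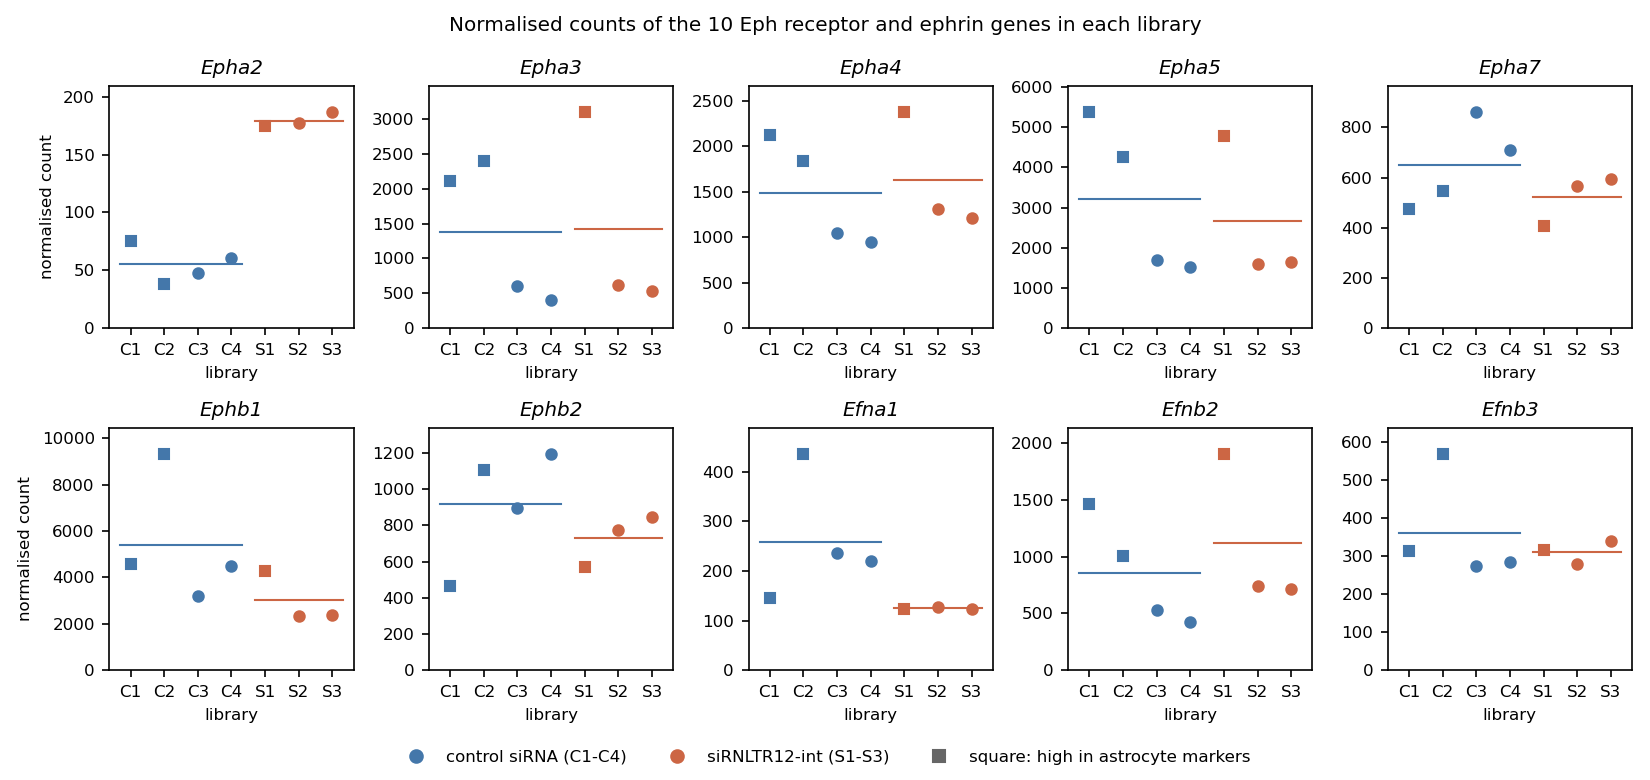
Each panel plots the normalised count of 1 gene (vertical axis, from 0) in control replicates 1 to 4 (C1 to C4, blue) and siRNLTR12-int replicates 1 to 3 (S1 to S3, orange); horizontal lines are group means and squares are the astrocyte-high libraries. Epha2 stands at 38.5 to 75.6 in controls and 174 to 187 after the siRNA, whereas Epha3, Epha4, Epha5 and Efnb2 are high in the 3 squares of both groups.

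Upstream windows were taken from RefSeq (GRCr8) for 8 of the 10 genes, and 3 of them lie outside every transcript that the reference lists for their gene. Those of Epha2, a gene whose siRNA groups did not overlap, and Efnb2, which separated the astrocyte-high from the astrocyte-low libraries, are shown as examples of these 2 patterns. Each is the 250 bases directly before the annotated transcription start, read 5′ to 3′ on the strand of the gene: chr5:158888379-158888628, plus strand, for Epha2 and chr16:87484965-87485214, plus strand, for Efnb2. Capitals mark matches on either strand to the cyclic AMP response element TGACGTCA, the AP-1 motif TGANTCA or the GC box GGGCGG.
Epha2: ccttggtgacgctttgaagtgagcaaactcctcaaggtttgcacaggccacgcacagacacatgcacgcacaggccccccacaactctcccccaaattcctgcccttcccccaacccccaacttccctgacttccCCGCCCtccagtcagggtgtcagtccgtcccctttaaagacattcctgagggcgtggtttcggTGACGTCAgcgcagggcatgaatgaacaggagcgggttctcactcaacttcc
Efnb2: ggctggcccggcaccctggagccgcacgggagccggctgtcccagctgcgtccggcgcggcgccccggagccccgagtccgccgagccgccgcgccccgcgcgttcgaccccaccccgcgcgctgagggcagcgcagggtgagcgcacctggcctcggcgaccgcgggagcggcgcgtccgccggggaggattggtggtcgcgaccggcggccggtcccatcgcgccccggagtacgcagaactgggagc
The Epha2 window held 1 match to the cyclic AMP response element, 44 bases before the start, and 1 GC box, 109 bases before it. The Efnb2 window held no match to any of the 3. Of 33469 windows of this length, 1.59% held the response element, 6.34% the AP-1 motif and 30.5% the GC box. Among the 8 members with a window the response element was found only in Epha2, the AP-1 motif in none, and the GC box in Epha2, Epha7 and Efna1. In the printed Epha2 window the 2 matches did not overlap, whereas some GC boxes of Efna1 (65 and 60 bases and 54 and 49 bases before its start) overlapped each other. A match here is a description of letters only.

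Efna1, the A-type ephrin first known as a ligand of Epha2, was lower after the siRNA. The controls had 144, 436, 237 and 220.0 normalised counts, and the siRNLTR12-int libraries had 122, 128 and 123. The 2 groups did not overlap, although control replicate 1 was only slightly above them, and its 95% counting interval of 122 to 169 (151 reads) overlapped theirs. The means were 259 ± 124 (SD, n = 4) and 125 ± 2.92 (SD, n = 3). The log2 difference was -0.94 with a standard error of 0.35. It was -0.86 in the astrocyte-low and -1.03 in the astrocyte-high libraries. Control replicate 2, the library with the most oligodendrocyte marker transcripts, was also the highest in Efna1, and without it the log2 difference was -0.65. The part of the oligodendrocyte markers in this difference was not tested.

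The ratio of Epha2 to Efna1 within a library does not depend on how libraries were scaled to each other. It was 0.523, 0.0882, 0.200 and 0.274 in the controls and 1.43, 1.39 and 1.52 after the siRNA. Epha2 counts were thus below Efna1 counts in each control and above them in each siRNLTR12-int library, without correction for the lengths of the genes. Since Epha2 was above and Efna1 below every control after the siRNA, the ratio had to separate the groups and adds no support. Other A-class receptors and A-type ephrins do not enter it. The mean ratio was 0.271 ± 0.184 (SD, n = 4) against 1.44 ± 0.0668 (SD, n = 3). Control replicate 1, with the highest ratio among controls, had the most Epha2 and the least Efna1 of the controls, and control replicate 2, with the lowest ratio, had the least Epha2 and the most Efna1.

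**Figure D2:**
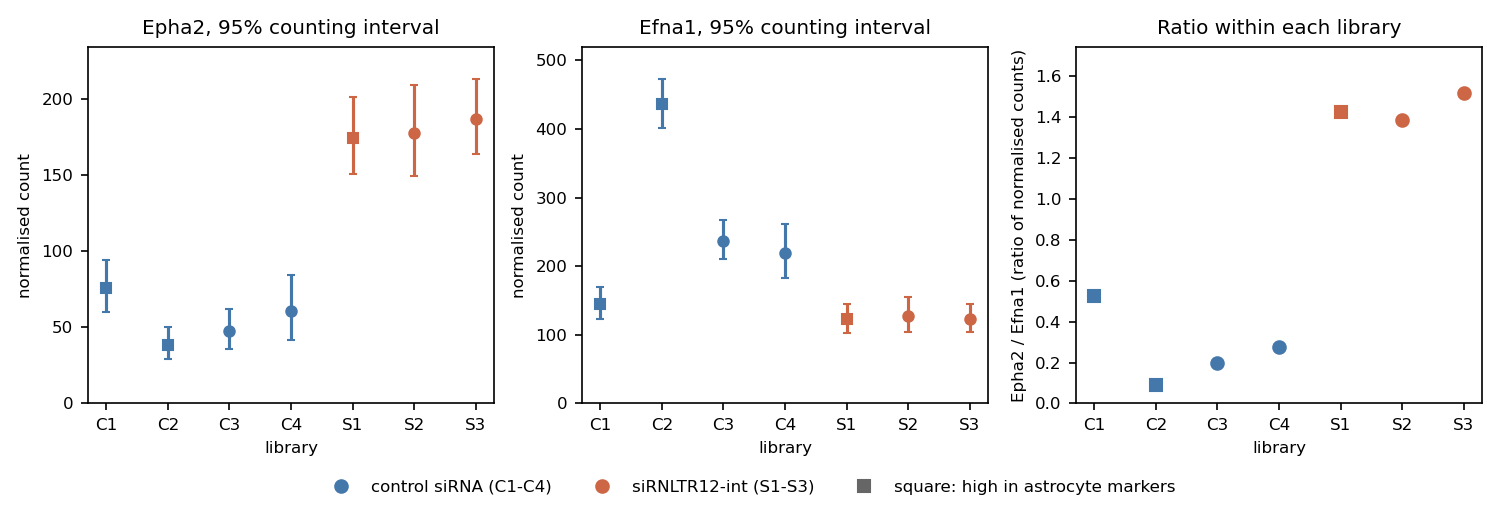
The left and middle panels plot normalised counts of Epha2 and Efna1 in each library with 95% exact Poisson intervals, and the right panel the ratio of Epha2 to Efna1, all from 0; C1 to C4 are controls, S1 to S3 siRNLTR12-int libraries, and squares the astrocyte-high libraries. The ratio is 0.0882 to 0.523 in controls and 1.39 to 1.52 after the siRNA.

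The A-class receptors Epha3, Epha4 and Epha5 are known as guidance receptors of the developing nervous system. They were higher in every astrocyte-high than in every astrocyte-low library, and over all 7 libraries their siRNA groups overlapped. Epha3 had 2108, 2398, 609 and 397 normalised counts in the controls and 3103, 616 and 539 in the siRNLTR12-int libraries. The 3 astrocyte-high libraries, at 2108 to 3103, were all above the 4 others, at 397 to 616, and the ratio of the means was 4.69. It was 4.48 among controls alone and 5.37 among siRNLTR12-int libraries alone, so the gap was present in both groups. Between the siRNA groups the means were 1378 ± 1021 (SD, n = 4) and 1419.7 ± 1459 (SD, n = 3), with a log2 difference of -0.06 and a standard error of 0.85.

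Epha5 had 5378, 4247, 1689 and 1515 in the controls and 4779.8, 1586 and 1632 in the siRNLTR12-int libraries. The astrocyte-high libraries were again all above the others, by a ratio of 2.99 (3.00 in controls and 2.97 after the siRNA). Over all 7 libraries the siRNA difference of Epha5 was -0.26 on the log2 scale with a standard error of 0.59. Within the astrocyte-low libraries it was 0.0082 (standard error 0.087). Within the astrocyte-high libraries it was 8.3e-05, where a single siRNLTR12-int library lay between the controls at 4247 and 5378. Epha4, a receptor that binds ephrins of both classes, had 2120.4, 1836, 1042 and 942 in the controls and 2376, 1308 and 1209.7 in the siRNLTR12-int libraries. Its astrocyte-high over astrocyte-low ratio was 1.88. The siRNA difference of Epha4 was 0.15 with a standard error of 0.37 over all 7 libraries, 0.34 within the astrocyte-low and 0.27 within the astrocyte-high libraries. On each side of the astrocyte division every siRNLTR12-int library was above every control in Epha4, with a single siRNLTR12-int library on the astrocyte-high side. The share of all genes with such an order was not counted, so nothing is read from it, here or for the genes below.

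Epha7, whose ephrin contacts are known from the guidance of cortical and retinal axons, had the opposite order. It had 477, 549, 862 and 711 in the controls and 407, 568 and 595 in the siRNLTR12-int libraries. The astrocyte-high libraries, at 407 to 549, were all below the astrocyte-low ones, at 568 to 862, with a ratio of 0.698. The sums of progenitor markers were also lower in the astrocyte-high libraries (244804 to 271262 against 359908 to 422760). Only 5 of the 9 progenitor markers had every astrocyte-high library below every astrocyte-low one. The part of progenitor markers in the order of Epha7 was not tested. Between the siRNA groups the means were 649.6 ± 172 (SD, n = 4) and 523 ± 102 (SD, n = 3), with overlapping groups and a log2 difference of -0.29 (standard error 0.24). Within each side of the division every siRNLTR12-int library was below every control in Epha7, an order whose share over all genes was not counted. The log2 differences there were -0.43 (astrocyte-low) and -0.33 (astrocyte-high, with a single siRNLTR12-int library).

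The B-class receptors Ephb1 and Ephb2, which bind B-type ephrins and act in axon guidance and synapse formation, did not separate the siRNA groups. Ephb1 had 4599, 9333, 3196 and 4487 in the controls and 4296, 2343 and 2389.5 in the siRNLTR12-int libraries. Control replicate 2 was far above the rest, and siRNLTR12-int replicate 1 lay among the other controls. The means were 5403 ± 2696 (SD, n = 4) and 3009 ± 1114 (SD, n = 3). The log2 difference was -0.79 with a standard error of 0.38. It was -0.48 without control replicate 2, and that library also had the most oligodendrocyte marker transcripts, whose part here was not tested. On each side of the astrocyte division every siRNLTR12-int library was below every control in Ephb1, an order whose share over all genes was not counted. The log2 differences there were -0.68 (astrocyte-low) and -0.61 (astrocyte-high, with a single siRNLTR12-int library). Ephb2 had 468, 1104, 899 and 1196 in the controls and 572, 775 and 849 in the siRNLTR12-int libraries. Control replicate 1 was its lowest library and control replicate 4 its highest, and the siRNLTR12-int libraries lay between them. The log2 difference was -0.26 with a standard error of 0.34.

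The B-type ephrins are Efnb2, known for its part in vessel formation and neural progenitors, and Efnb3, a midline guidance cue also found in myelin. Efnb2 had 1469, 1009, 534 and 426 in the controls and 1908, 744 and 712 in the siRNLTR12-int libraries. Its astrocyte-high libraries were all above the others by a ratio of 2.42 (2.58 in controls, 2.62 after the siRNA). On each side of the division the siRNLTR12-int libraries had more Efnb2 than the controls, an order whose share over all genes was not counted. The log2 difference was 0.61 (astrocyte-low) and 0.65 (astrocyte-high, with a single siRNLTR12-int library). Over all 7 libraries the Efnb2 difference was 0.40 with a standard error of 0.52. Without siRNLTR12-int replicate 1, the library that is astrocyte-high, it was -0.06. Efnb3 had 314, 569, 275 and 286 in the controls and 315, 278 and 339 in the siRNLTR12-int libraries. Apart from control replicate 2 its libraries lay within 275 to 339. The Efnb3 difference was -0.15 with a standard error of 0.27, and 0.09 without control replicate 2.

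Set against all genes, 4 of the 10 members (Epha3, Epha4, Epha5 and Efnb2) had every astrocyte-high library above every astrocyte-low one, and 1 (Epha7) had every one below. Among the 18225 genes with a mean of at least 10, the shares were 18.6% above and 17.1% below. The median log2 difference of astrocyte-high minus astrocyte-low libraries was 0.65 in the members, 0.096 in the other family genes and -0.0070 over all genes. These counts are descriptive, since the division was made from the astrocyte markers of the same libraries. The part of astrocytes in these levels was not tested, and the sums of microglia and vascular and fibroblast markers (higher in the astrocyte-high libraries) and of neuron and progenitor markers (lower there) moved with the division as well. By mean log2 level the vascular and fibroblast and the neuron markers did not separate the libraries in this way.

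**Figure D3:**
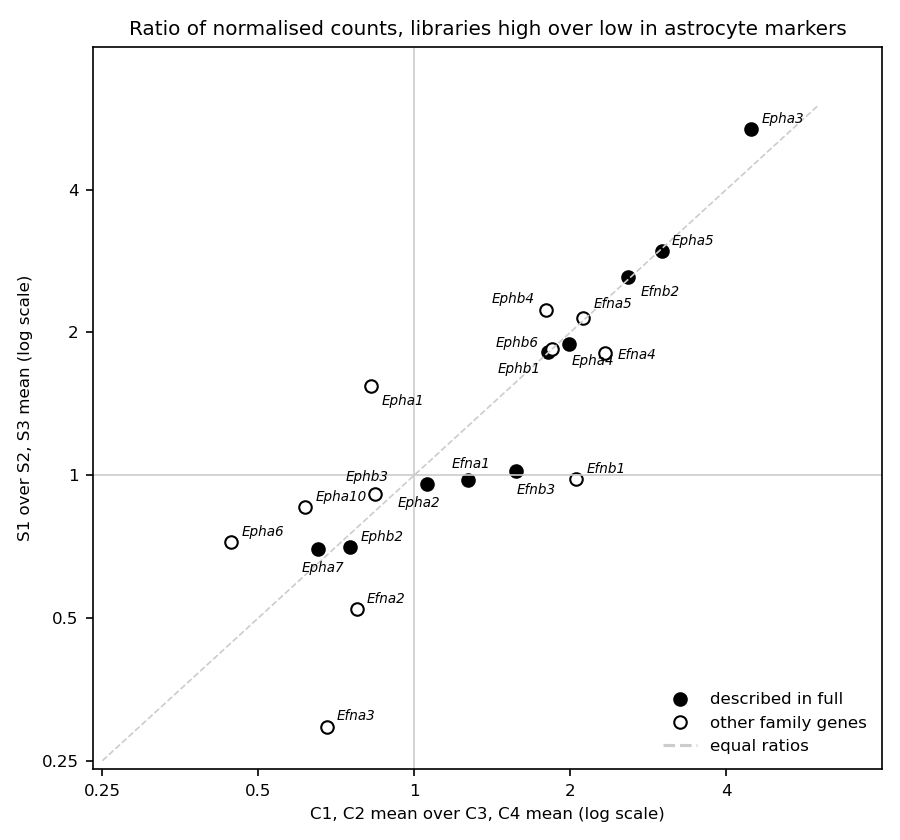
For 21 Eph family genes, the ratio of the mean normalised count in astrocyte-high to astrocyte-low libraries is plotted for controls (horizontal axis, C1 and C2 over C3 and C4) and for siRNLTR12-int libraries (vertical axis, S1 over S2 and S3), both on log scales; filled points are the 10 members, open points the other family genes, and the dashed line marks equal ratios. Epha3, at 4.48 and 5.37, is the farthest from 1, and Epha5 and Efnb2 follow.

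For the siRNA contrast, limma (two-sided, adjusted over all 18225 genes) called 0% of genes. Before adjustment 606 had a higher and 543 a lower level with p under 0.05. The edgeR fit to the recovered reads likewise called 0, and 1165 passed before adjustment. In the authors' deposited table (DESeq2) 0.384% of 18747 genes were called higher and 0.368% lower. Epha2 was the only member called there, in the upward direction, and 0 were called lower. Members above every control numbered 1 of 10 (Epha2), where 4.09% of all genes were so, and members below every control 1 of 10 (Efna1), where 3.59% of all genes were so. Since the set was picked on this contrast, nothing is read from these counts. The median log2 difference of the 10 was -0.20, with 3 positive and 7 negative, against 0.0057 over all genes tested. This median turned to 0.071 in the astrocyte-low libraries alone and to 0.020 without control replicate 2.

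None of the other 12 genes of the family was called over all 7 libraries by limma, by edgeR or in the authors' deposited table (DESeq2). Epha8, with a mean of 7.58 normalised counts, did not reach the minimum mean of 10. Of the 11 tested, 4 had a positive and 7 a negative difference, with a median of -0.17. None had an unadjusted p under 0.05 or groups that did not overlap, and their limma adjusted p-values ran from 0.935 to 0.999. The differences closest to either end were those of Epha6 (0.56, from a mean of 15.3 normalised counts) and Efna2 (-0.45). The receptors Ephb3, Epha1 and Epha10 differed by 0.13, -0.17 and 0.25, Ephb4, the venous receptor of Efnb2, by -0.39, and Ephb6, which lacks kinase activity, by -0.43. The ligands Efna3, Efna4 and Efna5 differed by -0.25, -0.17 and -0.01. In Ephb4, Ephb6, Efna4 and Efna5 every astrocyte-high library lay above every astrocyte-low one, and in Epha6 every one lay below. Efnb1, the third B-type ephrin, had 896 to 2328 normalised counts in controls and 1599.7 to 1659.6 after the siRNA, with a difference of 0.15 (standard error 0.32).

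**Figure D4:**
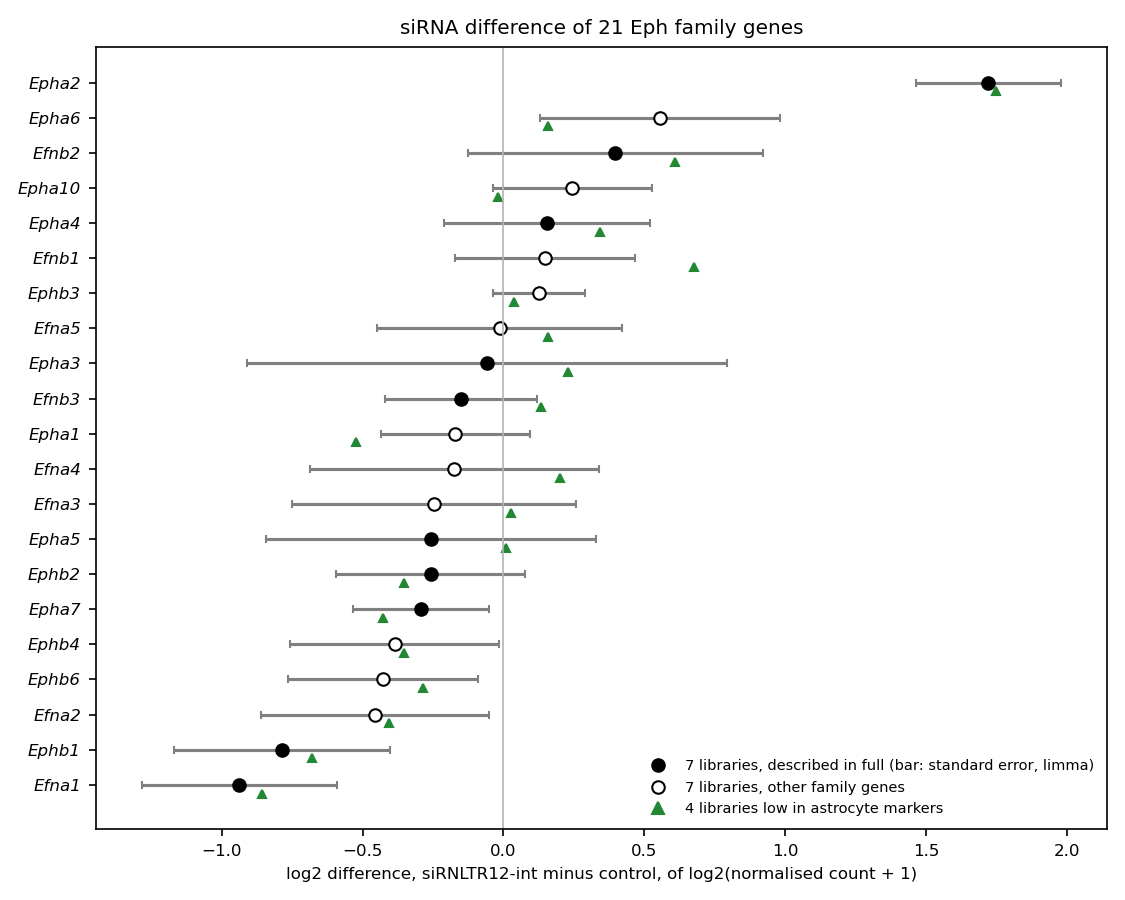
Circles are the log2 differences, siRNLTR12-int minus control, of 21 Eph family genes over 7 libraries, with bars of 1 standard error (limma); filled circles are the 10 members, open circles the other family genes, and triangles the same difference within the 4 astrocyte-low libraries. Epha2 (1.72) lies apart at the upper end and Efna1 (-0.94) at the lower end, and the triangles of Efnb1 (0.68), Efnb3 (0.13) and Epha1 (-0.52) lie outside their bars.

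Of 37 genes that act with Eph receptors or ephrins (among them adaptors, exchange factors, kinases and phosphatases), all were tested and 0 were called by limma, by edgeR or in the authors' deposited table (DESeq2). At an unadjusted limma p under 0.05, 6 were higher and 2 lower, where 606 and 543 of all 18225 genes tested were so. The median difference was 0.02. In 7 the siRNLTR12-int libraries were all above the controls (4.09% of all genes), and in 2 all below (3.59% of all genes). Src, a cytoplasmic tyrosine kinase that works downstream of both receptors and ephrins, had 4934 to 5677 normalised counts in controls and 6345 to 6784 with the siRNLTR12-int siRNA (log2 difference 0.31, adjusted p = 0.662 by limma). Nck1, an adaptor that binds activated receptors, had 882 to 1061 against 1170.3 to 1221 (log2 0.31, limma adjusted p = 0.701). Tiam1, which activates Rac, had 615 to 865 against 969 to 989.9 (log2 0.39, limma adjusted p = 0.712). Rasa1, a GTPase-activating protein for Ras, differed by 0.27 (limma adjusted p = 0.755). The tyrosine kinase Abl1 had 769.7 to 2213 in controls and 472 to 555 in the siRNLTR12-int group (log2 -1.13, adjusted p = 0.701 by limma), and its highest control was replicate 2, as for the oligodendrocyte markers. The symbol Abl1 stands in 2 rows, and all values given for it are those of the first row. The other row was not examined here.

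Within the 4 astrocyte-low libraries (control replicates 3 and 4, siRNLTR12-int replicates 2 and 3) limma called 4.02% of genes higher and 2.67% lower. There 6 of the 37 partners were called higher and 4 lower. The higher ones were Ngef and Vav3, exchange factors that act downstream of Eph receptors, with Sipa1l1, Src, Rock2 and Pak1. The lower ones were Chn2, which inactivates Rac, the lipid phosphatase Inppl1, the receptor phosphatase Ptpro, and Abl1. In the 3 astrocyte-high libraries the differences of Pak1 (-0.54 against 0.49) and Sipa1l1 (-0.15 against 0.45) had the opposite sign, and that of Rock2 was 0.062 against 0.57. Ngef differed by 0.70 (adjusted p = 0.0362, limma), and Ptpro by -0.90 (adjusted p = 0.0168, limma). Efnb1 was the only one of the 11 other family genes called in these 4 libraries, with a difference of 0.68 (adjusted p = 0.0335, limma), and in the 3 astrocyte-high libraries its difference was -0.39. Of the 10 members, Epha2 and Efnb2 were past the threshold upward and Efna1 downward in that fit, which is a description of the same contrast. These calls rest on 2 libraries in each group.

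**Figure D5:**
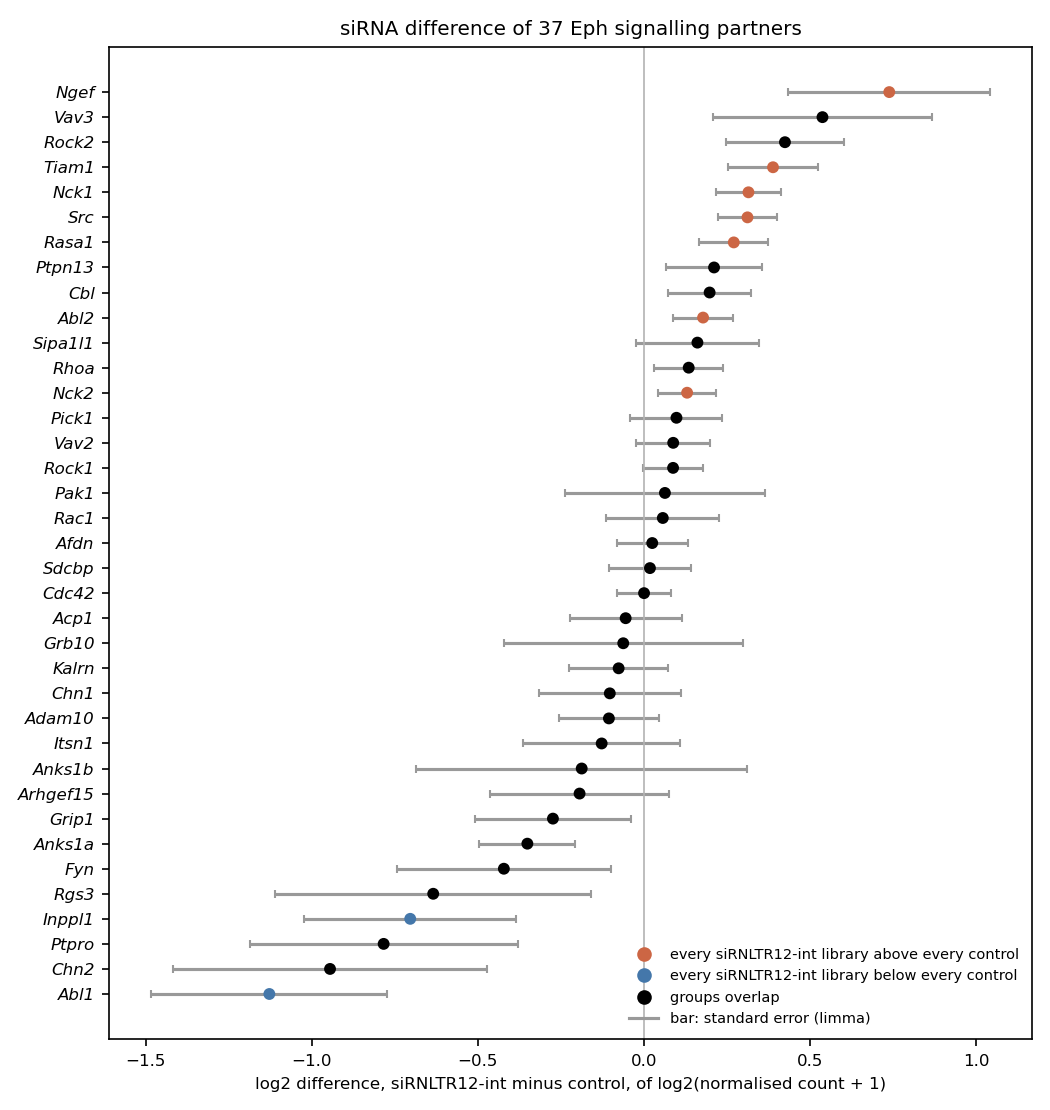
Points are log2 differences, siRNLTR12-int minus control, of 37 Eph signalling partners over 7 libraries with bars of 1 standard error (limma); orange points have every siRNLTR12-int library above every control, blue points every one below, and black points overlapping groups. Ngef (0.74) is the highest and Abl1 (-1.13) the lowest.

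The genes whose log2 values ran most like those of Epha2 over the 7 libraries, among 12220 with a mean of at least 100 and an established symbol, were Lasp1, an actin-binding protein (Pearson r = 0.990), Cpne2, a copine (0.990), the small GTPase gene Rab35 (0.986), Txnrd1, a thioredoxin reductase (0.985), and Rrp36, which acts in ribosomal RNA processing (0.981). These are descriptions over libraries that share the siRNA contrast. All 5 differed far less than Epha2 between the groups, by 0.25 to 0.46 on the log2 scale against 1.72. Lasp1 had 6571 to 7732 normalised counts in controls and 8768 to 9082 after the siRNA, and Txnrd1 5693 to 7180.2 against 8368 to 8780.3.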

How the data were processed

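Salmon, DESeq2 and the build Rnor_6.0 are named, without tool versions, per the submitters' processing notes. The authors deposited normalised gene counts, which are a signal in which each library was divided by its size factor, together with a comparison table that gives, per the file headers, a mean signal, a log2 fold change (siRNLTR12-int against control), its standard error, a test score, a p-value and an adjusted p-value. In each library 100% of the values tested (above 0 and under 2000 reads) were whole multiples of 1 step (tolerance 0.01 step), which gave back whole reads; no source used here gives the treatment of multi-mapped reads. Of the genes, 33 had no symbol.

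Normalised counts were transformed as log2(value + 1) and fitted with limma 3.58.1 (mean-variance trend, no covariate) in all 7 libraries over the 18225 genes with a mean of at least 10; genes were called at a Benjamini-Hochberg adjusted p under 0.05. This scale understates the change of low genes. edgeR 4.0.16 (quasi-likelihood) and DESeq2 1.42.0 were run on the recovered reads, and all 3 were tested on simulated data. Other alternatives were rescaling by TMM or upper quartile, a minimum mean of 50 or none, pseudocounts of 0.25 and 8, a replicate block, a block for the astrocyte division, array weights, a fit without the trend, the astrocyte-low libraries alone, and leaving out each library. The astrocyte-high libraries lie above the widest gap in the mean log2 level of the astrocyte list. Of the list genes, Lhfpl3, Itgam, Pecam1 and Col1a2 were not analysed here. No 2 of the 21 pairs of libraries agreed within sampling noise (lowest median chi-square per gene 1.28). Intervals are 95% exact Poisson.

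Named were all members and other family genes, the 5 partners with the smallest limma p, partners or family genes called in the astrocyte-low libraries (added after values were seen), the first or zero marker genes where a result needs them, and the 5 genes most like Epha2. Members, lists and alternatives were chosen with earlier results of these data known.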

Additional observations from a re-analysis of the deposited data

Results flagged for a closer look

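Among 26 Eph family and partner genes examined in the 4 controls, 2 had a control library set apart from the other 3 by more than the 95% limit of Dixon's ratio of gap to range, and chance gives about 1 in 20 such groups. Efnb3 had 569 normalised counts in control replicate 2, where the gap was 0.868 of the range. Abl1 had 2213 normalised counts in control replicate 2, where the gap was 0.871 of the range. The same library had the highest oligodendrocyte marker sum, whose part in both values was not tested.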

How the results depend on the processing

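The log2 difference of Epha2 was positive under all 20 alternatives (1.56 to 1.88). Epha2 was chosen on this contrast and its groups did not overlap, so leaving out a library could not turn the sign. Its adjusted p was under 0.05 in 3 alternatives (array weights, the astrocyte-low libraries alone, DESeq2) and ran from 4.9e-06 to 1 over limma, edgeR and DESeq2. The DESeq2 run gave the log2 difference and adjusted p of the authors' deposited table, which chose the gene, and shared its 141 calls. Genes called higher and lower numbered 0 in the 7 libraries with limma, 72 and 69 with DESeq2, 456 and 383 with array weights, and 732 and 486 in the astrocyte-low libraries alone; leaving out each library gave 0 to 1 in each direction. With the replicate block 0 were called and Epha2 differed by 1.78, control replicate 4 having no partner and so no weight; libraries sharing a number deviated together for number 1 (r = 0.75 across genes) and number 3 (0.63) but not number 2 (-0.19), so the numbers were not taken as pairs. The median of the other family genes moved from -0.17 to 0.014 with the astrocyte division as a block, to 0.027 in the astrocyte-low libraries, and to between -0.17 and 0.073 when each library was left out. Among the other family genes, differences that changed sign were those of Epha10 (-0.020), Efna3 (0.027), Efna4 (0.20) and Efna5 (0.16) in the astrocyte-low libraries, Efna4 (0.014) and Efna5 (0.17) with the astrocyte block, Efna3 with array weights (0.19) and Efnb1 with the replicate block (-0.087). On leaving out each library their ranges were Ephb3 -0.0013 to 0.22, Efna3 -0.63 to 0.31, Efna4 -0.58 to 0.073, Efna5 -0.37 to 0.19 and Efnb1 -0.087 to 0.37. Among the members, sign changes were those of Epha3 (0.32 with the astrocyte block, 0.23 in the astrocyte-low libraries, 0.043 with DESeq2, 0.039 with edgeR), Epha5 (0.0050 and 0.0082 in the first pair of these), Efnb3 (0.13 in the astrocyte-low libraries, 0.040 with array weights) and Epha4 (-0.037 with the replicate block). On leaving out each library the members ranged over -0.87 to 0.39 (Epha3), -0.15 to 0.35 (Epha4), -0.78 to 0.062 (Epha5), -0.43 to -0.12 (Epha7), -1.07 to -0.48 (Ephb1), -0.55 to -0.090 (Ephb2), -1.18 to -0.65 (Efna1), -0.065 to 0.71 (Efnb2) and -0.26 to 0.091 (Efnb3), with siRNLTR12-int replicate 1 or control replicate 1 or 2 at one end or the other of each; the medians ranged from -0.25 to 0.020 (members) and -0.015 to 0.12 (partners). Array weights called Src, Nck1, Rasa1 and Abl1, with Ngef and Rock2. The causes were not tested. Depth limits Epha2 most among the members, with 34 reads in control replicate 4.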
